A study of Mus musculus with 22 samples.

Results

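The miRNAs described here are the mouse miRNAs named miR-297, miR-466, miR-467 and miR-669, the families of a large rodent miRNA cluster that lies within the gene Sfmbt2. They were chosen by name alone, with every letter, number and arm kept, which gave 33 of the 626 features of a NanoString nCounter panel, of which 60 are controls, housekeeping mRNAs or miRNAs of other species and all others are mouse miRNAs. By the name that comes first, 4 belonged to the miR-297 family, 12 to miR-466, 8 to miR-467 and 9 to miR-669. Of the 33, 4 were joint, because the panel reads miRNAs of near-identical sequence together, for example miR-466a-3p with miR-466b-3-3p. Members that differ by few bases may also share signal where the panel lists them apart, so the identity behind any single count is uncertain.

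Sfmbt2 encodes a polycomb protein and is an imprinted gene, expressed from the paternal copy, that is needed in the placenta. Its intronic miRNAs arose in rodents by repeated duplication, are known from placenta and embryonic stem cells, and many carry runs of alternating bases.

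The study asked which miRNAs change when fallopian tube epithelium is transformed, in the tube, in tumors and in blood. All mice carried conditional alleles, among them those of a Brca gene, under a Pax8-driven, doxycycline-inducible Cre, which acts in the Pax8-expressing secretory cells of the tube, whereas the RNA came from bulk tissue or plasma. Control tubes (CT, n = 5) were not induced and kept floxed alleles: Brca1 fl/fl in CT1 and CT3, Brca1 fl/+ in CT2, Brca2 fl/fl in CT4 and Brca2 fl/+ in CT5. Induced tubes (FT, n = 5) were Brca2-/+ in FT1, FT3 and FT5, Brca1-/- in FT2 and Brca2-/- in FT4. Tumors titled metastases (M, n = 5) were Brca2-/- in M1 and M3, Brca1-/+ in M2 and M6 and Brca2-/+ in M4. M6 is labelled an ovarian tumor and the others peritoneal. Control plasma (CS2, CS3 and CS4) was drawn from the animals that gave CT2, CT3 and CT4, and tumor plasma (TS1 to TS4), whose source the labels call serum, from the animals that gave FT2 to FT5. The RNA put into an assay was 100 ng for tissue but 10 ng for plasma. The mice differed in genotype within each group, so the spread between samples of a group includes genotype. Ages were not given in the sources used here.

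The name of the cluster held for most members. In RefSeq (mouse assembly GRCm38.p6), Sfmbt2 lies at chr2:10370440-10595253, and 64 hairpins were matched to the members' names. Of these, 56 lay inside Sfmbt2, within 51.3 kb from 10466944 to 10518279. For 25 members all matched hairpins were inside the gene, for 3 some were, and for 5 none was: miR-466i on chromosome 13, miR-466j on chromosome 10, miR-466k on chromosome 3, miR-467f on chromosome 11 and miR-467g on chromosome 5. Of the 39 miRNA names behind the members, 2 (miR-466a-3p and miR-466a-5p) matched no hairpin. The hairpin of miR-466g, the most abundant member, is at chr2:10514595-10514674, and miR-669a had 12 matched hairpins, all inside the gene.

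RefSeq mature sequences were matched for 5 of the miRNAs, and the hairpins of all 5 lie outside Sfmbt2. No sequence was matched for members whose matched hairpins all lie inside the gene, such as miR-466g and miR-669a. The 5 are shown for their own repeated letters, and because miR-467f is among the few members above the assay's background. Whether the members inside the gene carry the same letters is not shown here. Each is written 5′ to 3′ with the seed, bases 2 to 8, in capitals.
miR-467f: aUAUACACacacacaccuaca
miR-467g: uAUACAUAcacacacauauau
miR-466j: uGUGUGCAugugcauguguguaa
miR-466k: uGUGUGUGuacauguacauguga
miR-467h: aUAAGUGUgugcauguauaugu
They map to chr11:69635419-69635439 and chr5:34732872-34732892 on the minus strand (miR-467f and miR-467g) and to chr10:60960802-60960824, chr3:85467396-85467418 and chr9:115381898-115381919 on the plus strand (miR-466j, miR-466k and miR-467h). No pair shared a seed. The sequences were of 2 kinds: miR-467f and miR-467g were 85.7% and 71.4% A or C, with alternating A and C over 12 and 9 bases, whereas miR-466j, miR-466k and miR-467h were 73.9%, 69.6% and 68.2% G or U. Both A/C-rich sequences shared a run of 11 bases, as did miR-466j and miR-467h, while miR-467f shared at most 4 bases in a row with any G/U-rich sequence. The motif ACACAC (on the RNA strand) was in 2 of the 5 sequences and in 0.655% of 1679 mature mouse miRNAs, and UGUGUG was in the other 3 and in 1.67%. These shares describe letters and say nothing of binding.

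Depth and background were set first. Total miRNA counts were 70164 to 598321 in tissue and 18350 to 269005 in plasma. The 8 negative hybridization controls, probes with no target, had means of 7.75 to 31.5 counts per sample, and a count was called above the controls when it exceeded their mean plus 2 SD in the same sample, a level of 18.3 to 67.7 counts. The highest control means were in CT2, FT5 and CS4 (31.5, 21.4 and 23.0). Of the marker lists, 5 of 5 epithelial miR-200 family members were above the controls in CT, FT and M. Of the ciliated cell markers (miR-34 and miR-449), 4 of 4, 3 of 4 and 0 of 4 were. Liver and erythrocyte markers were above in 3 of 3 each in both plasma groups. In CT, FT and M the erythrocyte markers above were 1, 2 and 3 of 3, and the liver markers 1, 1 and 2 of 3. Of 4 leukocyte markers 3 were above in every group. Of 5 smooth muscle and stroma markers 4, 3 and 2 were above in CT, FT and M, and 2 and 3 in CS and TS.

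Few members were above the negative controls. In most samples of a group (at least 3 of 5, 3 of 4 or 2 of 3), 3 of 33 members were above them in M and 1 in each other group. Over all mouse miRNAs the share was 25.8% in CT, 25.3% in FT and 25.8% in M, then 11.1% in control plasma and 16.8% in tumor plasma. The member in every group was miR-466g, and the others in M were miR-467f and miR-669a. Over all 22 samples, 22 members were above the controls in no sample, 8 in 1 to 3 samples and 3 in at least 4. Thus 11 of 33 members were above them in at least 1 sample. The same was so for 298 of all mouse miRNAs, which are the 626 features without the 60 others. Never being above the controls was therefore common on the panel, but it was more frequent, as a share, among the members than over all mouse miRNAs. In the median sample 22 members were below the mean of the negative controls. The whole panel was also low: over the 22 samples its median count had a median of 12. The same value was 10 for the members' median count and 13.6 for the control mean. Mean counts over all samples ran from 5.68 for miR-297b-5p to 99.4 for miR-466g with a median of 10.5, beside a median of 16.2 over all miRNAs, and none was among the 100 miRNAs used to scale tissue or the 30 used to scale plasma. For the 22 members never above the hybridization controls a level was therefore not detectable by this measure. Their group differences are read as differences in background counts. The study's own level for plasma was the mean plus 2 SD of the negative ligation controls. By that level miR-297c was above in most samples of M, CS and TS, and miR-467b in most of M, though both are among the 22.

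**Figure D1:**
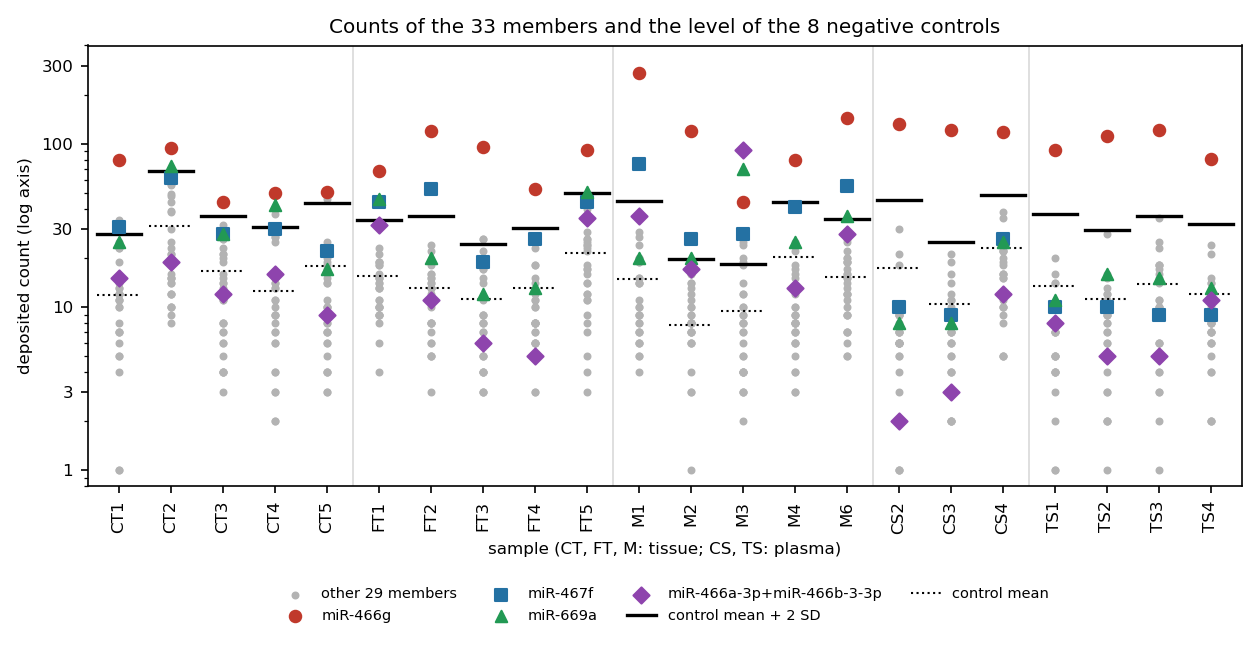
Deposited counts (log axis) of the 33 members in each of the 22 samples, with miR-466g, miR-467f, miR-669a and the joint miR-466a-3p row in colour and all other members in grey. Solid bars are the mean plus 2 SD of the 8 negative controls of that sample and dotted bars their mean; miR-466g lies above the solid bar in every sample, and most grey points lie below it.

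miR-466g was the only member above the controls in all 22 samples. Its deposited counts were 80, 94, 44, 50 and 51 in CT1 to CT5 and 68, 120, 96, 53 and 91 in FT1 to FT5. In the tumors they were 273, 120, 44, 80 and 144 in M1, M2, M3, M4 and M6. M1 was the highest sample and M3 equalled the lowest control tube, so the groups overlapped.

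In plasma the counts of miR-466g were 133, 122 and 118 in CS2 to CS4 and 91, 111, 122 and 81 in TS1 to TS4. The mean count was 111 ± 18.6 (SD, n = 7) in plasma and 93.9 ± 58.2 (SD, n = 15) in tissue, a ratio of 1.18, although the plasma assays took 10 ng of RNA and the tissue assays 100 ng. The same ratio was 0.931 for the negative hybridization controls, 1.51 for the positive controls, which are added at fixed amounts, 0.673 for the mean of the 32 other members, and 0.616 for the mean of all mouse miRNAs. It was 0.305 for miR-467f and 0.413 for miR-669a. The ratio was at least 1 for 9 of 33 members (27.3%), up to 1.79 for miR-466j, and for 16.6% of all mouse miRNAs, so a ratio near 1 was not particular to miR-466g, whose counts were higher than those of the other 8. Counts of miR-466g varied by 16.7% (CV) over plasma samples and 62.0% over tissue samples, and the mean of the negative controls varied by 30.4% and 37.4%. What part non-specific signal has in the miR-466g count was not tested. No test was made between tissue and plasma, since amount of RNA and kind of sample cannot be told apart here.

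miR-467f, the member whose hairpin lies on chromosome 11, counted 31, 62, 28, 30 and 22 in CT1 to CT5 and 44, 53, 19, 26 and 44 in FT1 to FT5. It counted 75, 26, 28, 41 and 55 in M1, M2, M3, M4 and M6, of which M4 alone was below its detection level. In plasma it counted 10, 9 and 26 in CS2 to CS4 and 10, 10, 9 and 9 in TS1 to TS4, above the controls in none. Relative to the control mean of the same sample, the median of miR-467f was 1.97 in CT, 2.06 in FT and 3.35 in M, and the ranges overlapped (1.23 to 2.61, 1.71 to 4.04 and 2.01 to 5.04).

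miR-669a counted 25, 73, 28, 42 and 17 in CT1 to CT5 and 46, 20, 12, 13 and 51 in FT1 to FT5. It counted 20, 20, 70, 25 and 36 in M1, M2, M3, M4 and M6, above the controls in M2, M3 and M6, and in M2 by less than 1 count (20 against a level of 19.7). In plasma its counts of 8, 8 and 25 in CS2 to CS4 and 11, 16, 15 and 13 in TS1 to TS4 were below the level throughout. M3 was its highest tumor by far, and CT2, the control tube with the highest background, its highest tube.

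M3 had 8 members above the controls and the other samples 1 to 3. In M3 these were 24.2% of the members, beside 26.0% of all mouse miRNAs, and in the other tissue samples 3.03% to 9.09% of the members were above the controls, beside 16.6% to 36.7% of all miRNAs. These were the joint miR-466a-3p row at 92 counts, miR-669a at 70, miR-466g at 44, miR-467f at 28, miR-467c at 25, miR-669f at 24, miR-669o at 20 and miR-467a at 19, against a level of 18.3 counts that was the lowest of all samples. All but miR-467f had their matched hairpins inside Sfmbt2. M1, of the same Brca genotype, had 2 members above the controls.

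**Figure D2:**
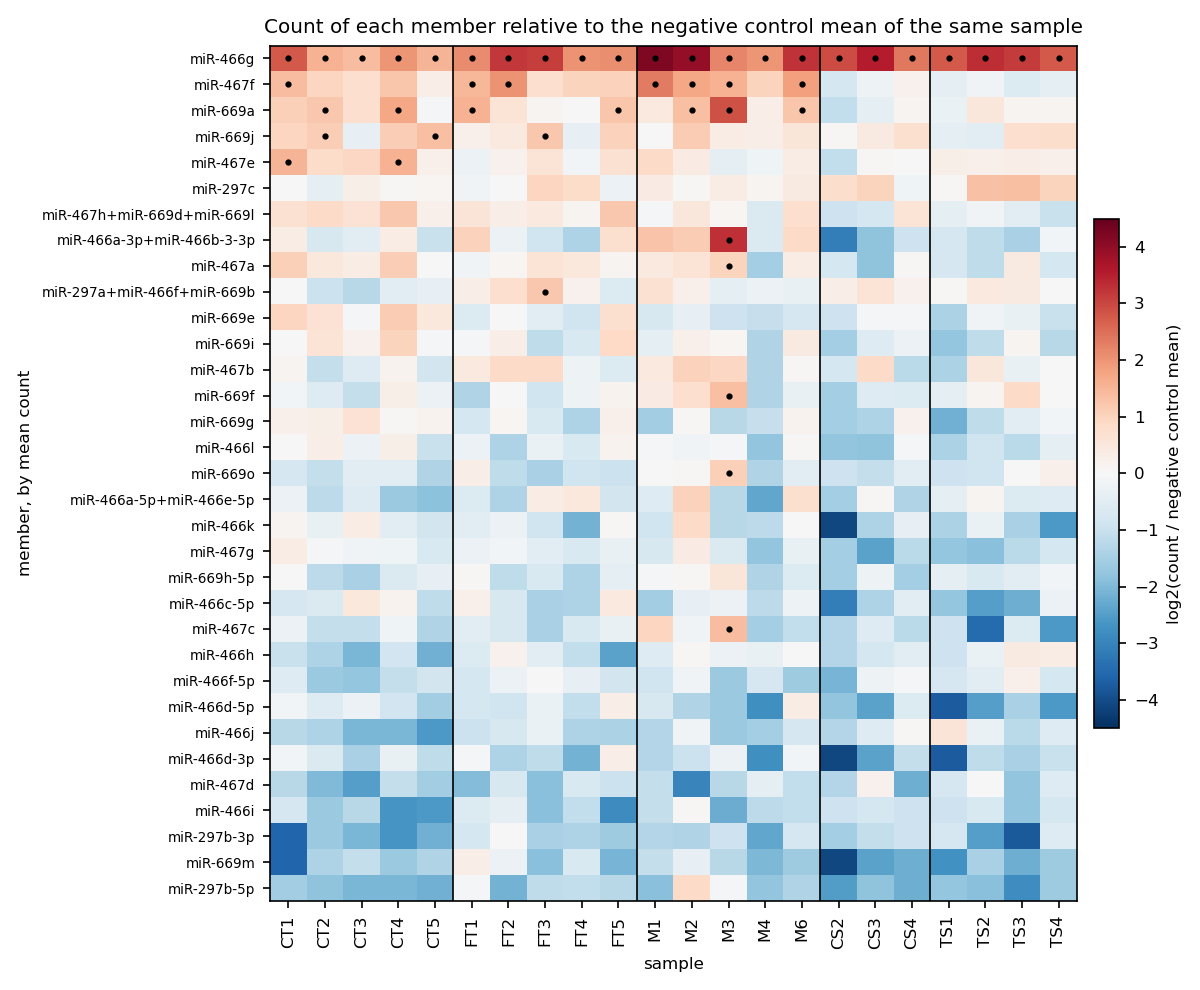
Heat map of log2(count / mean of the 8 negative controls of the same sample) for 33 members (vertical, by mean count) in 22 samples (horizontal, in groups CT, FT, M, CS and TS), with a dot where the count exceeds the control mean plus 2 SD. The row of miR-466g is red throughout, the dots of M3 run down the column, and the lower rows are mostly blue, below the control mean.

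For the group comparisons, counts were scaled to abundant miRNAs (the geometric mean of the top 100 for tissue and the top 30 for plasma) and tested with edgeR over all mouse miRNAs, with Benjamini-Hochberg adjusted p below 0.05 as the threshold. A miRNA at background then carries the ratio of the scaling factors, and the mean of the negative controls scaled alike shifted by -0.10 on the log2 scale in FT against CT, 0.23 in M against CT and -1.33 in TS against CS. FT and M were both set against the same CT samples, so both comparisons share them. In bulk samples, fewer cells of a type and less RNA per cell cannot be told apart.

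In FT against CT no member passed the threshold, where 0.177% of all miRNAs (1 miRNA) did. At an unadjusted p below 0.05 there were 0 members by edgeR, 0 by DESeq2 and 0 by limma with a pseudocount of 1, beside 7.24%, 7.24% and 3.36% of all miRNAs. The count moved with the scaling, to 4 members under TMM (16.4% of all miRNAs), 5 under DESeq2's size factors (17.3%), 5 under negative control scaling (13.6%) and 3 when scaled to miR-425 (12.7%). The groups overlapped in normalized counts for all 33 members, where 0.53% of all miRNAs did not overlap. The median log2 fold change was 0.04 over the members and 0.15 over all miRNAs, and 17 members were above 0. By family the medians were 0.88 for miR-297 (4 of 4 above 0), 0.31 for miR-466 (8 of 12), -0.10 for miR-467 (4 of 8) and -0.31 for miR-669 (1 of 9).

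The extremes in FT were members at background. miR-297b-3p, one arm of a hairpin inside Sfmbt2, had the highest log2 fold change (1.24, SE 0.72, adjusted p = 0.759) on counts of 1, 10, 4, 2 and 4 in CT1 to CT5 and 9, 13, 4, 5 and 7 in FT1 to FT5. The joint row of miR-297a, miR-466f and miR-669b was next (1.13, SE 0.63) on 12, 16, 7, 9 and 14 counts in CT and 19, 22, 26, 15 and 14 in FT, of which FT3 alone was above the controls. Both pairs of groups overlapped after scaling.

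At the low end were miR-669e (-0.88, SE 0.55) and miR-669g (-0.76, SE 0.59), neither of them above the controls in any sample. miR-669e counted 23, 49, 16, 28 and 25 in CT and 10, 13, 8, 7 and 35 in FT, where FT5 was high. miR-669g counted 14, 38, 26, 13 and 20 in CT and 9, 14, 7, 5 and 25 in FT. Their exact permutation p-values (two-sided, unadjusted, on log2 normalized counts, n = 5 and 5) were 0.135 and 0.246, where the design can reach 0.00794. miR-466g had a log2 fold change of 0.94 (SE 0.58, adjusted p = 0.759), and 3 of 5 FT samples were above the CT mean.

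In M against CT 2 members were higher (10.2% of all miRNAs were) and 0 were lower (4.24% of all miRNAs were), and 9 members (27.3%) had an unadjusted p below 0.05, beside 28.3% of all miRNAs. The 2 of 33 are 6.06% of the members, below the share of the panel. The median log2 fold change was 0.72 over the members and 0.29 over all miRNAs, with 22 of 33 members above 0 and a shift of 0.23 in the negative controls. No member's groups were apart in normalized counts, where 7.42% of all miRNAs were apart and higher and 5.12% apart and lower. By family the medians were 1.04 for miR-297, 0.68 for miR-466, 0.55 for miR-467 and 0.45 for miR-669, and by position they were 0.72 for the 25 members inside Sfmbt2 and 0.89 for the 5 outside it.

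Summed markers of cell types also differed in median between the same groups, some with overlapping ranges. The summed normalized counts of 5 smooth muscle and stroma markers were 4713 to 13280 in CT (median 7077) and 626 to 3821 in M (median 1430). Those of 4 ciliated cell markers were 308 to 3758 in CT and 23.3 to 82.9 in M. Those of 4 leukocyte markers were 485 to 1009 in CT (median 595) and 341 to 6073 in M (median 1961). Those of 3 erythrocyte markers were 113 to 675 in CT (median 198) and 358 to 2860 in M (median 1018). Those of 5 epithelial markers were 9285 to 11038 in CT (median 9744) and 242 to 42010 in M (median 2235). For these last lists, leukocyte, erythrocyte and epithelial, the ranges of CT and M overlapped. Against CT, the housekeeping mRNAs scaled alike had a log2 difference of 3.37 for the tumors and 1.85 for FT. The part of cell composition or of RNA quality in the members' differences was not tested.

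The joint row of miR-466a-3p and miR-466b-3-3p was higher in M by 2.48 on the log2 scale (SE 0.67, adjusted p = 0.0184 with edgeR). Its counts were 15, 19, 12, 16 and 9 in CT1 to CT5 and 36, 17, 92, 13 and 28 in M1, M2, M3, M4 and M6. Normalized counts were 14.7 ± 4.01 (SD, n = 5) in CT and 83.2 ± 101 in M, and 5 of 5 tumors were above the CT mean, but CT5 at 21.1 was above M2 at 15.8 and M6 at 19.1. M3 was the only sample of any group in which this member was above the controls. Without M3 the difference was 1.42 (adjusted p = 0.0992), and the call was also lost without CT2, CT3 or CT4 (adjusted p = 0.050, 0.0559 and 0.0545). The exact permutation p was 0.0397 (two-sided, unadjusted). In FT the same member counted 32, 11, 6, 5 and 35, with a log2 fold change of 0.12 (SE 0.51), and in plasma it counted 2, 3 and 12 in CS and 8, 5, 5 and 11 in TS.

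miR-466g was higher in M by 1.85 (SE 0.60, adjusted p = 0.0461 with edgeR), with normalized counts of 69.9 ± 33.9 (SD, n = 5) in CT and 251 ± 271 in M. Normalized counts ran from 37.2 to 119 in CT and from 98.3 to 730 in M, with M1 at the top and 5 of 5 tumors above the CT mean. The exact permutation p was 0.0238 (two-sided, unadjusted). Without M1 the difference was 0.92 (adjusted p = 0.174), and the call was also lost without CT1, CT2, CT3 or CT4 (adjusted p from 0.0899 to 0.123). Before any scaling the mean log2 counts differed by 0.86, and with the counts scaled to the negative controls the difference was 1.44 (adjusted p = 0.144).

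How many members passed, and in which direction, turned on the scaling. Under TMM and under DESeq2's size factors 5 members were higher and 1 was lower, under negative control scaling 2 were higher and 1 lower, and under positive control scaling 0 were higher and 3 (miR-467e, miR-669e and miR-669g) lower. With the negative controls subtracted, 7 were higher and 1 lower. limma on log2 values called no member in either direction. Over all miRNAs the split was 58 higher and 24 lower when scaled to abundant miRNAs, 83 and 68 under TMM, 92 and 71 under DESeq2's size factors, 40 and 20 under negative control scaling, 24 and 113 under positive control scaling, 88 and 64 with the controls subtracted, and 42 and 24 by limma with a pseudocount of 1.

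Of the members above the controls in M, miR-467f had a log2 fold change of 1.30 (SE 0.51, adjusted p = 0.104), with 4 of 5 tumors above the CT mean, and miR-669a of 0.96 (SE 0.54, adjusted p = 0.242), with 3 of 5. Neither passed the threshold. miR-466h, a background member of 4 to 18 counts, was just outside it (1.61, SE 0.53, adjusted p = 0.0515). The lowest were miR-669e (-1.14, SE 0.53, adjusted p = 0.168) and miR-669g (-0.85, SE 0.50, adjusted p = 0.260).

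miR-669e was the single member whose groups were apart in the deposited counts, with 9, 6, 5, 10 and 9 in M1, M2, M3, M4 and M6 below the 16 to 49 of CT, where 9.01% of all miRNAs were apart and lower and 3.0% apart and higher. When scaled to abundant miRNAs its groups overlapped (15.8 to 58.6 normalized counts in CT and 5.59 to 24.2 in M). Relative to the control mean of the same sample they did not, at 0.962 to 2.22 in CT and 0.491 to 0.774 in M, where 5.3% of all miRNAs were apart and lower. On the same measure miR-466h was apart and higher (0.224 to 0.554 in CT and 0.672 to 1.03 in M), where 4.59% of all miRNAs were. miR-669e was called lower under 5 of 22 alternatives, among them negative control scaling (-1.44, adjusted p = 0.0187 with edgeR), with adjusted p from 0.00383 to 0.604 over the alternatives. Since miR-669e was above the controls in no sample, these counts give no level. miR-669g counted 5, 8, 4, 10 and 17 in the tumors, where M6 reached into the CT range.

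**Figure D3:**
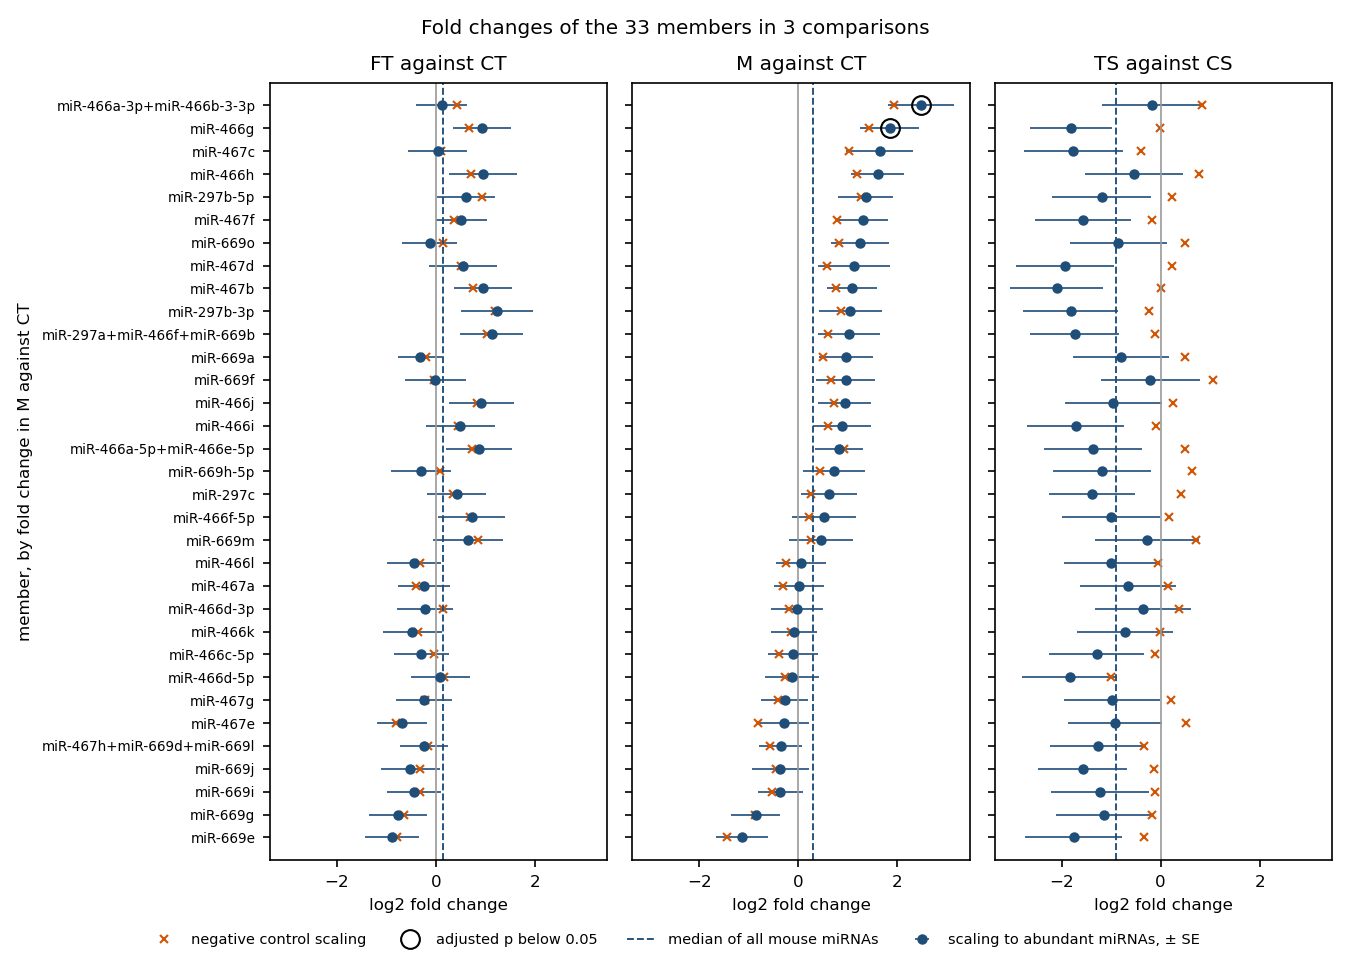
Log2 fold changes of the 33 members (vertical) in FT against CT, M against CT and TS against CS, as edgeR estimates ± SE scaled to abundant miRNAs (filled circles) and as estimates with counts scaled to the negative controls (crosses). Open circles mark the 2 members past the threshold, both in M, the dashed line is the median of all mouse miRNAs, and in plasma the crosses lie around 0 while the filled circles lie below it.

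In TS against CS no member passed the threshold, as was so for 0.0% of all miRNAs. At an unadjusted p below 0.05 there were 2 members by edgeR (miR-467b and miR-466g), 4 by DESeq2 and 3 by limma with a pseudocount of 1, beside 7.42%, 10.2% and 5.12% of all miRNAs. All 33 members had a log2 fold change below 0, with a median of -1.19, beside -0.89 over all miRNAs and -1.33 for the negative controls. When the counts were scaled to the negative controls instead, the members' median was 0.15 and 18 of 33 were above 0. The scaling factor differed between the groups by 0.96 on the log2 scale, and within CS it ran from 131 in CS3 to 2331 in CS4.

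The lowest members in plasma were miR-467b (-2.10, SE 0.94, adjusted p = 0.542) and miR-467d (-1.94, SE 0.99). miR-467b counted 10, 19 and 10 in CS2 to CS4 and 5, 16, 11 and 12 in TS1 to TS4. miR-467d counted 7, 12 and 5 in CS and 8, 11, 4 and 8 in TS. The deposited counts overlapped for both, and CS3, with the smallest scaling factor, was the highest control after scaling (140 and 88.7 normalized counts).

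At the other end were the joint miR-466a-3p row (-0.18, SE 1.002) and miR-669f (-0.21, SE 0.997), the latter with 6, 7 and 15 counts in CS and 10, 12, 25 and 12 in TS. miR-466g had a log2 fold change of -1.82 (SE 0.83, adjusted p = 0.542), and -0.01 with counts scaled to the negative controls. Normalized counts did not overlap for miR-466c-5p alone (5.3% of all miRNAs did not), on 2, 4 and 16 counts in CS and 4, 2, 3 and 10 in TS, below the controls throughout. Its exact permutation p was 0.0571 (two-sided, unadjusted), the smallest that 4 against 3 samples allow.

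Many members were highest in the samples with the highest background. Among the tissue samples, 14 of 33 members (42.4%) had their highest or joint highest count in CT2, as had 33.9% of all mouse miRNAs and 6 of the 8 negative controls, and among the plasma samples 25 of 33 (75.8%) had it in CS4, as had 62.4% of all miRNAs and 4 of the 8 controls. miR-466g had its highest tissue count in M1 and its highest plasma count in CS2. Both arms of a hairpin were measured for miR-297b and miR-466d. Their medians over 22 samples were 4 and 5 counts for the 5p and 3p arms of miR-297b and 6.5 and 6 for those of miR-466d, with none above the controls, so no ratio of arms could be read.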

How the data were processed

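The authors deposited whole-number counts of fluorescent barcodes (NanoString nCounter miRNA assay v1.5), without normalization, for 626 features in each of 22 samples. The submitters' methods used nSolver 3.0 and scaled tissue to the geometric mean of the top 100 miRNAs and plasma to that of the top 30, with no background subtraction, and this scaling was repeated here. M5 and CS1 were not analysed here. Alleles other than those of the Brca genes are not reported here.

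Counts were tested with edgeR 4.0.16 (quasi-likelihood, scaling factors as library sizes, all mouse miRNAs, Benjamini-Hochberg, threshold 0.05, R 4.3.3) and single members with exact permutation tests (Python 3.11.15, scipy 1.17.1). Samples of a group were treated as different mice, which the sources do not state for the tumors. The paper reports that 2 mice gave both an induced tube and a metastasis, without naming them, so some FT and M samples may share a mouse. The p-values set a group difference against the spread within groups of mixed genotype. The number of samples and the background counts limit the precision. Alternatives were other scalings, DESeq2 1.42.0, limma 3.58.1 (pseudocounts 1 and 10), the methods' own two-tailed test, control subtraction, minimum mean counts of 20 and 50, other control levels, a replicate block and each sample left out. The methods' own test was run here on log2 values with adjusted p, whereas the paper states no adjustment. For FT, limma with pseudocount 10 was chosen after seeing the data. Members, lists and tests were chosen with earlier results of these data known. Values in every sample are given for members above the controls in most samples of a group, past the threshold, or among the 2 highest and 2 lowest fold changes of a comparison. Others named (such as miR-466h, miR-466c-5p, miR-467c and the arms of miR-466d) were chosen after their values were seen. Other lists were the embryonic miR-290 cluster, an X-linked testis cluster, and markers of erythrocytes, smooth muscle, ciliated cells, epithelium, leukocytes and liver, taken from general knowledge.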

Additional observations from a re-analysis of the deposited data

Results flagged for a closer look

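Among the 44 sets of 4 or 5 samples tested for the named members (11 members in CT, FT, M and TS), 7 held a sample whose normalized count lay far from the others, where chance gives about 1 in 20. The members were named partly for extreme fold changes and 3 of the 7 lay in 1 sample, so the count is not to be read against that rate. The highest was miR-466g in M1, at 730.3 against 98.3 to 193 in the other tumors, followed by miR-669a in M3, at 192.9 against 18.6 to 60.4. Among the control tubes CT5, whose scaling factor was the smallest of them, held 3: the joint miR-297a row at 32.79 against 6.70 to 13.1, miR-669f at 35.14 against 7.92 to 13.8, and miR-467d at 14.05 against 2.97 to 5.46. The others were miR-297b-3p in FT2, at 30.79 against 3.14 to 9.94, and miR-669g in TS3, at 18.78 against 4.13 to 5.61. CT5, FT2 and TS3 had the smallest scaling factors of their groups (199, 196 and 515), and those members' deposited counts there, from 6 to 15, were at background. Of the tumors, M3 had the smallest scaling factor (169) and M1 the next (174). The part of the scaling in these values was not tested.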

How the results depend on the processing

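No member was called in FT against CT under any alternative run, where at most 2.12% of all miRNAs were. In M against CT 2 members were called, beside 14.5% of all miRNAs. TMM and DESeq2 size factors called 6 each (26.7% and 28.8% of all miRNAs), and subtracting the negative controls 8 (26.9%). DESeq2 called 5 (21.9%), and fitting CT, FT and M together 1 (9.19%). A minimum mean count of 50 left 1 member to test, which was called, beside 51.9% of the miRNAs kept. limma with pseudocounts of 1 and 10 called 0 (11.7% and 12.5%). The methods' own test called 0 by adjusted p (5.65%). At an unadjusted p below 0.05 it gave 3 members (9.09%), beside 21.7% of all miRNAs. With a sample left out the count ran from 0 to 6. It was 0 without CT2, CT3 or CT4 (9.89%, 9.19% and 8.83% of all miRNAs) and 6 without M6, the ovarian tumor (17.8%). It was 1 without CT1, M1 or M3 (9.01%, 13.4% and 11.7%) and 5 without M2 (15.2%). With the sample number as a replicate block, 2 members were called in M (12.4% of all miRNAs) and 0 in FT. In TS against CS the block called 10 members, all lower, where every other alternative called 0. There it called 90 of all miRNAs (15.9%), 88 of them lower. The numbers do not pair the samples, since controls and induced mice are different animals. For example, CT1 carried Brca1 alleles and FT1 Brca2 alleles, so the block has no basis in the design. Deviations of same-numbered samples correlated from -0.295 to 0.299 in FT and CT, -0.154 to 0.063 in M and CT and -0.004 to 0.371 in TS and CS. In these comparisons 1 of 5, 0 of 4 and 1 of 3 samples correlated best with their own number. The median member log2 fold change was 0.94 in FT and 1.85 in M at a minimum mean count of 50 (miR-466g alone), -0.18 in M under positive control scaling, and 0.15 in TS under negative control scaling. The medians of all miRNAs moved too, in M from 0.29 to -0.47 under positive control scaling and in TS from -0.89 to 0.38 under negative control scaling. Signs turned for miR-297b-3p in FT with the controls subtracted (-0.09), for miR-669a in M under positive control scaling (-0.14), and for miR-467b (0.01) and miR-467d (0.23) in TS under negative control scaling. By the negative ligation controls, 8 members were above in most samples of M, beside 40.1% of all miRNAs. By the same controls 2 were above in each of FT, CS and TS (32.7%, 16.3% and 27.4% of all miRNAs). By the highest hybridization control 4 were above in CT (29.7%) and 2 in FT (26%). In M 1 member was above if every sample had to be (13.1%). With a sample left out M had 2 or 3 (18.2% to 24.9%). The adjusted p ranged over the alternatives from 0.00583 to 0.415 for miR-466g in M and from 0.000386 to 0.292 for the joint miR-466a-3p row. The cause of these changes was not tested beyond what each alternative shows.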

Other observations

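Other clusters that are known from embryonic or germ cells were read the same way. In most samples of a group, 0 of 11 rows of the embryonic miR-290 cluster and 0 of 21 rows of an X-linked testis cluster were above the negative controls, in every one of the 5 groups. Over all mouse miRNAs the share above was 11.1% to 25.8% by group. In M against CT 1 row of each cluster was called higher by edgeR, where 10.2% of all miRNAs were. The clusters' median log2 fold changes were 0.32 and 0.51, beside 0.29 over all miRNAs.

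The motifs of the printed members were also found in other miRNAs of the panel. Among 192 other miRNAs with a matched sequence, ACACAC was in miR-362-3p, miR-568 and miR-574-3p, and UGUGUG in miR-1187, miR-291a-3p and miR-574-5p. miR-574-3p was above the controls in 13 samples and miR-574-5p in 11, the others in 0 to 3. The mean counts of these 6 miRNAs ran from 14.1 to 44.8.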
